A study of Mus musculus with 40 samples.

Results

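Activins, their secreted antagonists and parathyroid hormone-related protein (PTHrP) were followed through 8 of the 37310 genes in the count table of a mouse model of lung squamous lesions. The antagonists are Fst (follistatin) and Fstl3 (follistatin-like 3), the ligand subunits are Inhba and Inhbb (inhibin βA and βB), the receptors are Acvr1b, Acvr2a and Acvr2b, and Pthlh encodes PTHrP. The 8 genes were chosen by name with their levels by dysplasia grade, sample type and strain already known, so those levels are a description here and carry no test.

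SWR/J and A/J mice were painted on the skin with N-nitrosotris-(2-chloroethyl)urea (NTCU), a carcinogen that induces bronchial dysplasia and squamous carcinoma, or with acetone vehicle. RNA came from fresh frozen whole lung sections, graded by the worst histology present, and from cells isolated by laser capture microdissection (LCM). Of 40 sequenced samples, 25 passed quality control (13 LCM and 12 whole lung), with library totals of 2667387 to 16534728 counts, and 15 did not. The question that the design addresses is how expression differs with histological grade.

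The 7 normal samples came from vehicle-treated mice, 3 of them A/J and 4 SWR/J. The 5 samples with mild dysplasia were all SWR/J at a total of 15 µmol NTCU. The 13 high-grade samples comprised 9 with moderate to severe dysplasia, 2 with severe dysplasia, 1 carcinoma in situ (CIS) and 1 squamous cell carcinoma (SCC). Moderate to severe dysplasia was sampled in A/J at 14 µmol (n = 3) and in SWR/J at 25 µmol (n = 2) or 30 µmol (n = 4). Severe dysplasia was sampled only in SWR/J at 50 µmol, and CIS and SCC only in A/J at 20 µmol. Grade and dose therefore cannot be told apart within a strain. The labels of 2 passed samples conflict, since the description of mild replicate 5 names normal histology and that of normal replicate 7 names mild dysplasia. The labels do not tie samples to animals, so the spread between samples may be partly technical. The mice were female and entered the study as young adults.

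Activins are dimers of inhibin β subunits and belong to the TGF-β superfamily. They bind a type II receptor (ACVR2A or ACVR2B), which activates a type I receptor such as ACVR1B, and the pair phosphorylates SMAD2 and SMAD3, which act in the nucleus with SMAD4. Follistatin and FSTL3 enclose the ligand and keep it from its receptors. PTHrP signals through PTH1R, the receptor it shares with parathyroid hormone. In the lung it is a product of epithelium that acts on neighbouring mesenchyme, and squamous carcinomas are known to secrete it.

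In mm9 coordinates, Fst lies at chr13:115242470-115249159 on the minus strand and Fstl3 at chr10:79240017-79245375 on the plus strand. Inhba lies at chr13:16103684-16119044 (plus) and Inhbb at chr1:121312042-121318825 (minus). The receptor genes are Acvr1b at chr15:101004556-101043032, Acvr2a at chr2:48669629-48758789 and Acvr2b at chr9:119311562-119342619, all on the plus strand. Pthlh lies at chr6:147200623-147212689 on the minus strand. All 8 are annotated as protein coding. The 3′ end of Fstl3 overlaps Prss57 on the opposite strand over 1157 bases, and that of Acvr2a overlaps Orc4 over 446 bases. The library kit does not keep strand, so reads in those overlaps cannot be assigned to a strand.

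Promoter sequence was matched in RefSeq (GRCm38.p6) for 7 of the 8 genes, Fst being the gene without an entry. The sequences of Pthlh and Inhba are printed because Pthlh was measured in all 25 samples whereas Inhba was close to the detection limit in the same libraries. Each holds the 250 bases before the annotated start, 5′ to 3′, with matches to the searched motifs in capitals.
Pthlh, chr6:147264014-147264263, minus strand: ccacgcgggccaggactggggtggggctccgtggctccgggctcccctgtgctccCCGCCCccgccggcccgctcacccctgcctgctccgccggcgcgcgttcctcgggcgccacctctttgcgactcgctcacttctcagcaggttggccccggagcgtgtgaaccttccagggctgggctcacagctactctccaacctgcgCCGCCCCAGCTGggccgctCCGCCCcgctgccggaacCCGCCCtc
Inhba, chr13:16011601-16011850, plus strand: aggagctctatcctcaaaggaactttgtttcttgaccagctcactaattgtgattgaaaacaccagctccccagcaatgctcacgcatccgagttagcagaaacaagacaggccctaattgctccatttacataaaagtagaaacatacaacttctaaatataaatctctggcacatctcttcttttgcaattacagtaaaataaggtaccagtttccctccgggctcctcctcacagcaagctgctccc
The letters searched on both strands were TGANTCA (AP-1), TGACGTCA (the cAMP response element), GTCTAGAC and CAGAC (long and short Smad elements), GACCACCCA (GLI), GGGCGG (the GC box) and CAGCTG (an E-box). The Pthlh window held 4 GC boxes, starting 195, 45, 26 and 8 bases before the start, and 1 CAGCTG at base 39 before the start, directly beside the GC box at base 45. The Inhba window held none of the 7. The GC box occurred in 32.7% of 32851 promoters of this length and CAGCTG in 13%, so neither match is rare. A match describes the letters only.

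Per kilobase of annotated exon, the median level over the 25 samples was highest for Acvr2a (4.21 counts scaled to library size, CPM, per kb) and Fstl3 (4.21), followed by Acvr1b (3.44), Fst (3.12), Inhbb (2.43) and Pthlh (1.61). Acvr2b (0.553) and Inhba (0.0473) were lower. The spread between samples was wide for Fst (0.510 to 44.4 CPM per kb), Inhbb (0.396 to 25.5) and Pthlh (0.306 to 14.9), so neighbours in this order overlapped. Acvr2a kept within 1.45 to 7.20 CPM per kb. All later levels are log2 CPM, counts scaled to library size after TMM normalization with a prior count of 2, on which a count of 0 reads as −2.22.

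Every lesion sample had a higher Fst level than the normal samples of its own strain, although its level did not climb with every grade. In SWR/J mice the 4 normal samples had Fst levels of 0.67, 1.54, 1.64 and 1.70 log2 CPM. The 5 mild dysplasia samples had 2.64, 3.20, 3.35, 3.72 and 4.64. The 6 SWR/J samples with moderate to severe dysplasia ran from 2.24 to 5.52 with a median of 2.90, and the 2 with severe dysplasia had 2.74 and 2.82. Every SWR/J dysplasia sample thus lay above every SWR/J normal sample.

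In A/J mice, normal samples had Fst levels of 1.92, 2.51 and 3.61 log2 CPM. Those with moderate to severe dysplasia had 3.65, 3.87 and 4.05. The SCC sample had 6.07 and the CIS sample 6.90, the highest values of the data set. The 3 A/J stages did not overlap, although the gap between the highest normal (3.61) and the lowest dysplasia sample (3.65) was small. The highest A/J normal was normal replicate 7, whose labels conflict. Without it and mild replicate 5 the fitted difference of Fst from normal was 1.97 ± 0.77 in mild and 3.02 ± 0.66 in high-grade lesions, that of Pthlh 2.04 ± 0.74 and 1.94 ± 0.69, and that of Inhbb 2.11 ± 0.74 and 0.66 ± 0.65.

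Separation of every lesion sample from every normal sample of its own strain held for 3 of the 15630 tested genes, or 0.0192%. It held for 0.179% of genes in SWR/J alone and for 2.55% in A/J alone. With the strains pooled, no gene separated all lesions from all normal samples, and the A/J normal samples of Fst overlapped the SWR/J lesions. The order normal, moderate to severe and CIS/SCC without overlap in A/J held for 1.14% of genes. Since grade was used to choose Fst, these shares describe its place among genes and are not a test.

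The groups averaged 1.94 ± 0.92 log2 CPM in normal (SD, n = 7), 3.51 ± 0.74 in mild dysplasia (n = 5) and 3.93 ± 1.5 in high-grade samples (n = 13). Adjusted for RNA integrity, strain and sample type, the fitted log2 difference of Fst from normal was 2.16 ± 0.74 (SE) in mild dysplasia and 2.80 ± 0.62 in high-grade lesions. Per step of a 5-level grade scale, from normal (0) to CIS/SCC (4), it was 1.0 ± 0.19. High-grade samples averaged 3.90 ± 1.41 in LCM (n = 7) and 3.96 ± 1.74 in whole lung (n = 6), a gap smaller than the spread within either. Without the CIS and SCC samples the high-grade difference was 2.09 ± 0.56.

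**Figure D1:**
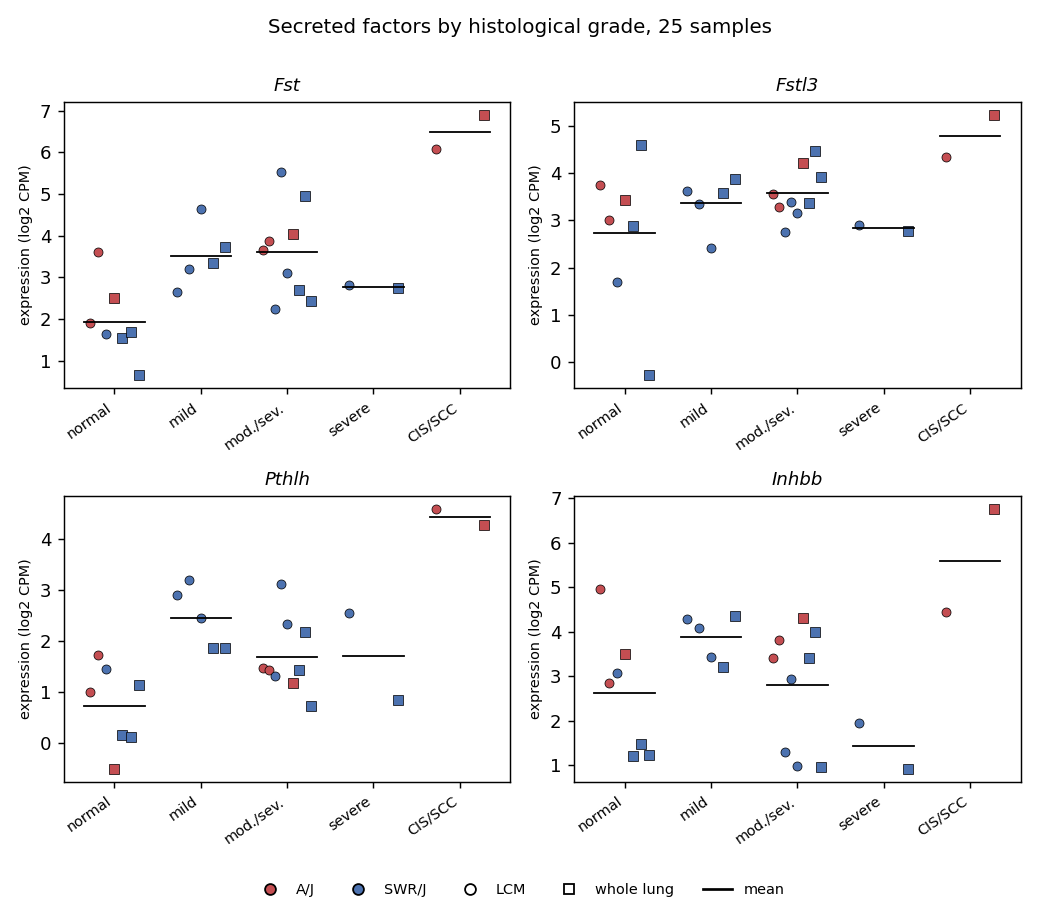
Levels of Fst, Fstl3, Pthlh and Inhbb in each of the 25 samples (y axis, log2 CPM) by histological grade (x axis), with strain as colour, sample type as symbol and the mean of each grade as a line. Fst and Pthlh reach their highest values in the 2 CIS/SCC samples, and the severe dysplasia samples of Inhbb (0.93 and 1.94) are near or below the SWR/J normal samples.

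Fstl3, the other activin antagonist gene, showed no such order. Normal samples ran from −0.28 to 4.61 log2 CPM with a median of 3.02. Mild dysplasia samples had 2.41, 3.35, 3.62, 3.58 and 3.89, and high-grade samples ran from 2.76 to 5.24 with a median of 3.39, so all 3 groups overlapped. The lowest value belonged to normal replicate 5 and the highest to the CIS sample. The fitted difference from normal was 1.12 ± 0.54 in mild dysplasia and 0.56 ± 0.38 in high-grade lesions. In whole lung alone, with 2 mild samples, the mild difference was 2.51 ± 1.31. Reads in the overlap with Prss57 cannot be assigned to either gene.

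Mean Pthlh levels were lower in normal tissue than in each lesion grade. The 4 SWR/J normal samples had 0.11, 0.15, 1.13 and 1.46 log2 CPM and the 3 A/J normal samples −0.50, 1.0 and 1.73. The 5 mild dysplasia samples had 1.86, 1.87, 2.45, 2.91 and 3.20, above the 4 SWR/J normal samples, a separation that held for 5.12% of genes. They also lay above the 3 A/J normal samples, but the share of genes above all 7 was not counted. Moderate to severe dysplasia ran from 0.73 to 3.12 with a median of 1.44, and the 2 severe samples had 0.85 and 2.55, so these overlapped normal tissue. The CIS sample had 4.29 and the SCC sample 4.60, both above the other 23 samples.

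Pthlh rested on few reads outside the tumors. The 7 normal libraries held between 2 and 53 expected counts each, the SCC library 337 and the CIS library 182. The fitted difference from normal was 1.95 ± 0.66 in mild dysplasia and 1.92 ± 0.60 in high-grade lesions, and the slope per grade step was 0.86 ± 0.16. Without the CIS and SCC samples the high-grade difference was 0.95 ± 0.37 and the slope 0.41 ± 0.20. In mild dysplasia, LCM samples averaged 2.85 ± 0.38 (n = 3) and the 2 whole lung samples had 1.86 and 1.87. The mild difference was 2.0 ± 0.97 within LCM and 0.66 ± 1.19 within whole lung. All mild samples were SWR/J. The LCM fit held 1 SWR/J normal sample, and the whole lung fit 2 mild samples.

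Inhbb, which encodes the βB subunit of activin B, was higher in mild dysplasia than in SWR/J normal tissue. The 4 SWR/J normal samples had 1.21, 1.23, 1.49 and 3.08 log2 CPM, against 3.22, 3.44, 4.09, 4.29 and 4.35 in mild dysplasia. These groups did not overlap. SWR/J samples with moderate to severe dysplasia ran from 0.96 to 4.0 with a median of 2.13, and the 2 severe samples had 0.93, below the SWR/J normal samples, and 1.94, within their range. In A/J, normal samples had 2.85, 3.50 and 4.97, moderate to severe dysplasia 3.40, 3.82 and 4.31, the SCC 4.44 and the CIS 6.76.

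The fitted difference of Inhbb from normal was 2.12 ± 0.68 in mild dysplasia and 0.77 ± 0.61 in high-grade lesions. The high-grade difference was −0.60 ± 0.63 within LCM (7 high-grade and 3 normal samples), within 1 standard error of 0. It was 2.17 ± 0.78 within whole lung (6 and 4 samples). Of the LCM normal samples 1 was SWR/J. Fitted over all samples, the high-grade difference of Inhbb in LCM relative to whole lung was −2.33 ± 0.80 (adjusted p = 0.68, edgeR). For Fst, Fstl3, Acvr1b, Acvr2a and Pthlh this term lay between −0.74 and 0.15. These values are a description and not a test, because grade and sample type served to choose the genes. Without strain and sample type as covariates the mild difference of Inhbb was 1.47 ± 0.81. Fst, Inhbb and Pthlh were among the 5.12% of genes with every mild sample above every SWR/J normal sample. Fst, Pthlh and Acvr2a were among the 4.08% with both CIS/SCC samples above the other 23.

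Inhba, which encodes the βA subunit of activin A, was scarcely detected. It was listed at 0 counts in 10 of 25 libraries and reached at most 17 counts, in mild replicate 3. Summed counts were 19 over 7 normal, 34 over 5 mild and 29 over 13 high-grade libraries. Mild dysplasia samples had 0, 1, 7, 9 and 17 counts, normal samples 0 to 13, and the SCC and CIS samples 14 and 1. A count of 0 allows a level of up to 3 counts in a library, and 18 of the 25 libraries were at or under it, so no fold change is given. Inhba did not pass the filter on low values, and neither did Acvr2b.

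The type II receptor gene Acvr2a varied least of the 8, with an SD of 0.50 log2 CPM over all samples against 1.48 for Fst. It averaged 4.07 ± 0.61 log2 CPM in normal tissue (n = 7), 4.69 ± 0.09 in mild dysplasia (n = 5) and 4.47 ± 0.46 in high-grade samples (n = 13). The 5 mild samples had 4.60, 4.60, 4.72, 4.76 and 4.78, and normal samples ran from 3.08 to 4.78 with a median of 4.26, so the groups overlapped. The CIS (5.36) and SCC (4.92) samples were the highest. Its fitted difference from normal was 1.04 ± 0.24 in mild dysplasia and 0.29 ± 0.18 in high-grade lesions.

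Acvr1b, the activin type I receptor gene, averaged 3.31 ± 0.92 log2 CPM in normal tissue, 4.25 ± 0.64 in mild dysplasia and 2.82 ± 1.25 in high-grade lesions. The mild samples had 3.54, 3.68, 4.27, 4.85 and 4.92. The severe dysplasia samples had 0.51, the lowest value, and 1.67, whereas SCC and CIS had 4.65 and 4.49. The 0.51 rested on 3 counts, in the passed library with the lowest median TIN (21.7). The skeletal muscle markers (Acta1, Ckm and Myh4) summed to 1755 and 5653 CPM in the 2 severe samples, against 6.63 to 961 in normal samples. In moderate to severe dysplasia they summed to 9.21 to 6045 CPM, so high sums were not confined to the severe samples. Over the 25 samples the correlation (Pearson's r) of Acvr1b with this list was −0.62. With the endothelial list it was 0.63 and with the ciliated list 0.60. Severe values of the other genes come from the same 2 libraries, and the part of muscle or RNA integrity was not tested. High-grade samples as a group ran from 0.51 to 4.65 and enclosed the normal range (1.71 to 4.41). The fitted difference was 1.24 ± 0.41 in mild dysplasia and 0.04 ± 0.32 in high-grade lesions.

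Acvr2b, the other type II receptor gene, held between 0 and 24 counts per library. It averaged 0.22 ± 0.69 log2 CPM in normal tissue, −0.39 ± 1.21 in mild dysplasia and 0.09 ± 0.61 in high-grade lesions. The 3 LCM samples with mild dysplasia had −2.22, −0.72 and −0.43, whereas the 2 whole lung samples had 0.64 and 0.77. At these counts no difference by grade was detectable.

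**Figure D2:**
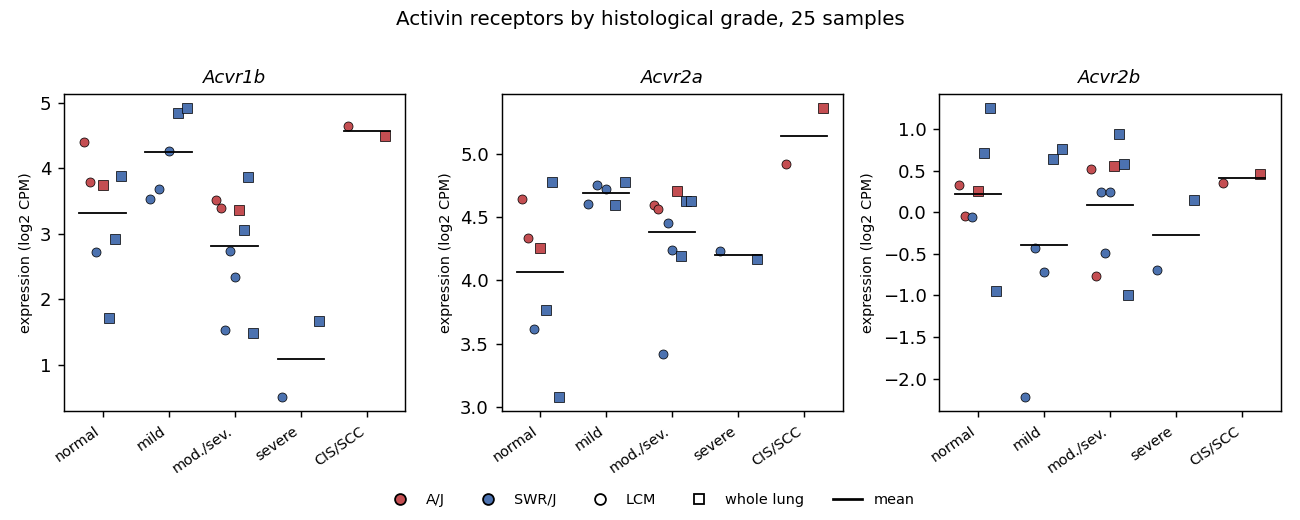
Levels of Acvr1b, Acvr2a and Acvr2b in each of the 25 samples (y axis, log2 CPM) by histological grade (x axis), with strain as colour, sample type as symbol and the mean of each grade as a line. Acvr2a stays between 3.08 and 5.36, Acvr1b is at 0.51 (3 counts) and 1.67 in severe dysplasia, and the Acvr2b point at −2.22 is a mild dysplasia library with 0 counts.

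The call rate among all genes sets the scale for these fits. With edgeR's quasi-likelihood test and an adjusted p under 0.05, 12.4% of 15630 genes were called between mild dysplasia and normal, and 2 of the 6 tested genes of interest (Acvr2a and Inhbb) were among them. Between high-grade and normal samples 0.0192% of all genes and 0 of the 6 were called, with 2 of the 6 (Fst and Pthlh) and 9.14% of all genes under an unadjusted 0.05, and 1 of the 6 called by DESeq2, beside 95 of all genes. For the grade scale the figures were 0.262% and 2 of 6 (Fst and Pthlh). For LCM against whole lung edgeR called 14.6% and 0 of 6, with 30.3% and 1 of 6 under an unadjusted 0.05 and 0 of 6 called by DESeq2, beside 3348 of all genes. For strain it called 0.992% and 0 of 6, with 17.5% and 3 of 6 under an unadjusted 0.05 and 3 of 6 called by DESeq2, beside 961 of all genes. Nothing is read from these counts, because the same contrasts served to choose the genes.

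The median fitted difference of the 6 was 1.60 in mild dysplasia against −0.02 over all genes, and 0.66 in high-grade samples against −0.01. All 6 were positive in both. These values describe the genes and are not a test, because the same contrasts served to choose them. Inhba and Acvr2b, which did not pass the filter, are not among the 6. Without the SCC sample, the CIS sample or normal replicates 2, 3 or 6, none of the 6 was called on the grade scale. The fitted slopes stayed between 0.84 and 1.09 for Fst and between 0.39 and 1.01 for Pthlh over 40 alternatives.

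Sample type and strain were fitted beside grade. For LCM against whole lung the fitted log2 difference was 0.74 ± 0.43 for Pthlh and −0.77 ± 0.32 for Fstl3, and those of Inhbb, Acvr1b and Acvr2a lay between −0.51 and −0.19. The value for Fst was near 0, and the fit gave it no standard error. Pthlh averaged 1.39 ± 0.37 in LCM normal samples (n = 3) and 0.22 ± 0.68 in whole lung normal samples (n = 4). All 6 differences between A/J and SWR/J were positive, from 0.58 ± 0.67 for Pthlh to 2.22 ± 0.68 for Inhbb. CIS and SCC, sampled only in A/J, were part of the high-grade group of this fit, and their part in these differences was not tested. Normal samples of Pthlh overlapped between strains, from −0.50 to 1.73 in A/J and from 0.11 to 1.46 in SWR/J. Inhbb averaged 3.77 ± 1.08 in A/J normal samples (n = 3) and 1.75 ± 0.89 in SWR/J normal samples (n = 4), with an overlap between 2.85 and 3.08.

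**Figure D3:**
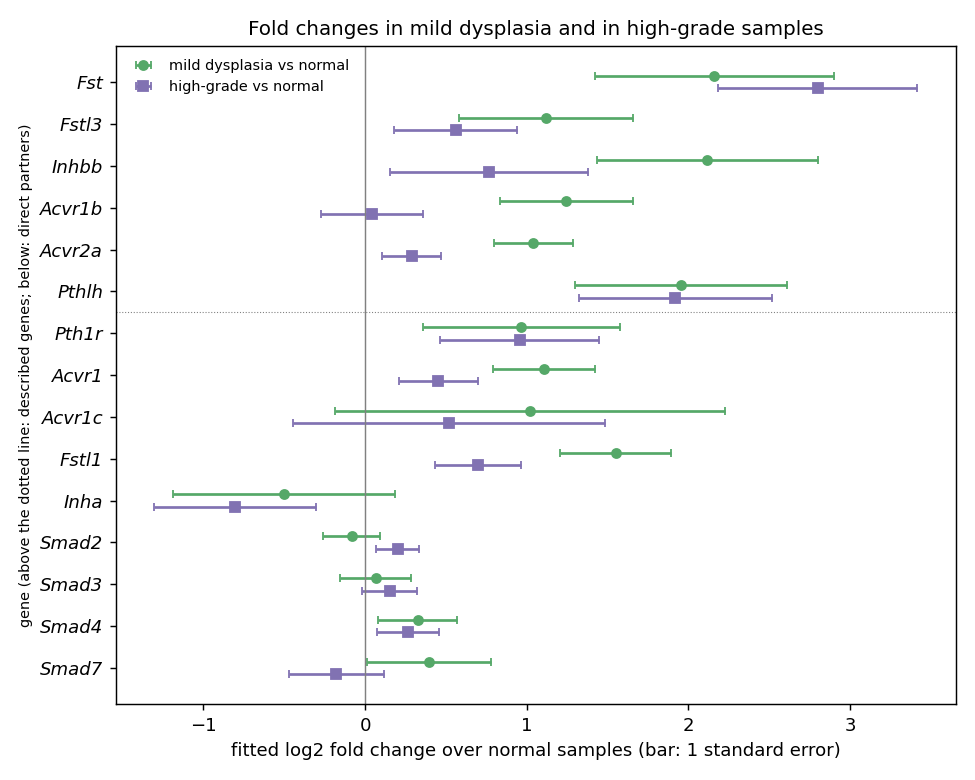
Fitted log2 difference from normal samples (x axis; error bar, 1 standard error) for mild dysplasia (circles) and high-grade lesions (squares) for 6 genes of the axis, above the dotted line, and 9 direct partners, below it (y axis). Fst is 2.16 above normal in mild dysplasia and 2.80 in high-grade lesions, Pthlh 1.95 and 1.92, and the values for Acvr1b are 1.24 in mild dysplasia and 0.04 in high-grade lesions.

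RNA integrity was not used to choose the genes and could be tested. The transcript integrity number (TIN) gives the share of a transcript that reads cover evenly, and its sample medians ran from 21.7 to 75.1. Per 10 units of median TIN, Acvr1b changed by 0.45 ± 0.13 on the log2 scale (adjusted p = 0.045, edgeR), in the direction of higher levels at higher integrity. The TIN coefficient was called for 7.31% of all genes and for 1 of these 6. The call for Acvr1b was held in 8 of 25 fits that each left out 1 library and in 12 of 39 alternatives, with a range of 0.35 to 0.61 and adjusted p from 0.00092 to 0.55. The other 5 did not pass, with values between −0.30 ± 0.16 for Fstl3 and 0.27 ± 0.26 for Fst. The 13 high-grade samples had a median TIN of 45.5, against 58.7 in normal and 57.8 in mild samples.

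The direct partners of these genes were followed by name whatever their values. Pth1r, the PTHrP receptor gene, averaged 1.18 ± 1.12 log2 CPM in normal tissue, 2.04 ± 0.61 in mild dysplasia and 2.11 ± 0.74 in high-grade lesions. Its difference from normal did not pass the test in mild dysplasia (0.97 ± 0.61, adjusted p = 0.28) or in high-grade samples (0.96 ± 0.49, adjusted p = 0.57; edgeR). Inha, whose product pairs with β subunits to form inhibins, likewise did not pass (−0.50 ± 0.69 in mild and −0.81 ± 0.50 in high-grade samples). Smad2, Smad3 and Smad4, the transducers, differed from normal by −0.08 to 0.32 in mild dysplasia and by 0.15 to 0.26 in high-grade samples, with no adjusted p under 0.17 in any of the 3 grade comparisons. Smad7, the inhibitory Smad, had 0.40 ± 0.39 and −0.18 ± 0.30. Acvr1c, which encodes an alternative type I receptor for activin, had 1.02 ± 1.21 and 0.52 ± 0.97.

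Among 69 further genes of the activin, TGF-β, BMP and PTHrP pathways, 60 passed the filter. In mild dysplasia 9 of the 60 (15%) were called, beside 12.4% of all genes called in either direction. All 9 were higher than in normal samples, beside 5.21% of all genes called higher. Under an unadjusted 0.05 were 20 of the 60, beside 32.7% of all genes. The median difference of the 60 was 0.46, against −0.02 over all genes. The 2 called ligands were Tgfb2 (1.96 ± 0.53, adjusted p = 0.027) and Tgfb3 (1.58 ± 0.34, adjusted p = 0.014; edgeR). The 3 called receptors were Bmpr1b (2.42 ± 0.64), Bmpr1a (1.5 ± 0.30) and Acvr1 (1.11 ± 0.31), the type I receptors of BMPs and, for Acvr1, of activin and BMP ligands. The 2 called secreted modulators were Bmper (1.97 ± 0.65), which encodes a BMP-binding protein, and Fstl1 (1.55 ± 0.34), a secreted protein of the follistatin family. Among the response genes Ctgf, a known target of TGF-β, was called (1.97 ± 0.50). Adjusted p for these 9 lay between 0.0128 and 0.0492. None of the 10 Smad and co-repressor genes and none of the 9 tested PTHrP pathway genes was called by edgeR, with 0 and 1 of them under an unadjusted 0.05, beside 32.7% of all genes. DESeq2 called 19 of the 60, beside 3653 of all 15630 genes.

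The levels behind these calls varied. Tgfb3 had 4.53 to 5.12 log2 CPM in the 5 mild samples and 2.59 to 4.76 in the 7 normal samples. Fstl1 had 6.67 to 7.43 in mild and 5.15 to 6.58 in normal samples, with no overlap, and the share of all genes without overlap was not counted. Bmpr1a (5.82 to 6.40) overlapped the A/J normal LCM samples (5.94 and 5.97). The calls for Tgfb3, Fstl1 and Bmpr1a held in all 25 fits that left out 1 library each, whereas that for Bmper held in 7.

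Markers of another cell type moved with the same comparison, and their part in the calls was not tested. The 3 thymocyte markers (Rag1, Dntt and Ptcra) summed to 8.84 to 1819 CPM in normal samples, to at most 1.67 in mild dysplasia, where Ptcra was at 0 in all 5 samples, and to 0 to 1120 in high-grade samples. Without the 5 libraries above 500 CPM of these markers (3 normal and 2 with moderate to severe dysplasia), 0 of the 60 pathway genes were called in mild dysplasia, and 105 of all genes were called in place of 1945. The fitted differences were then 1.22 for Fstl1 (adjusted p = 0.072), 1.14 for Tgfb3 (0.17) and 1.19 for Bmpr1a (0.090). In the same fit the difference was 1.98 ± 0.98 for Fst, 2.62 ± 0.90 for Inhbb and 1.88 ± 0.85 for Pthlh, and none of the 6 was called. Within LCM samples alone and within whole lung samples alone, with 3 and 2 mild samples, no gene of the table was called in mild dysplasia.

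In high-grade samples 0 of the 60 pathway genes were called by edgeR, 8 had an unadjusted p under 0.05 (9.14% of all genes did), and DESeq2 called 1, beside 95 of all 15630 genes. On the grade scale edgeR called 0, 9 had an unadjusted p under 0.05 (13.7% of all genes did), and DESeq2 called 2, beside 539 of all genes. The median difference in high-grade samples was 0.23, against −0.01 over all genes.

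**Figure D4:**
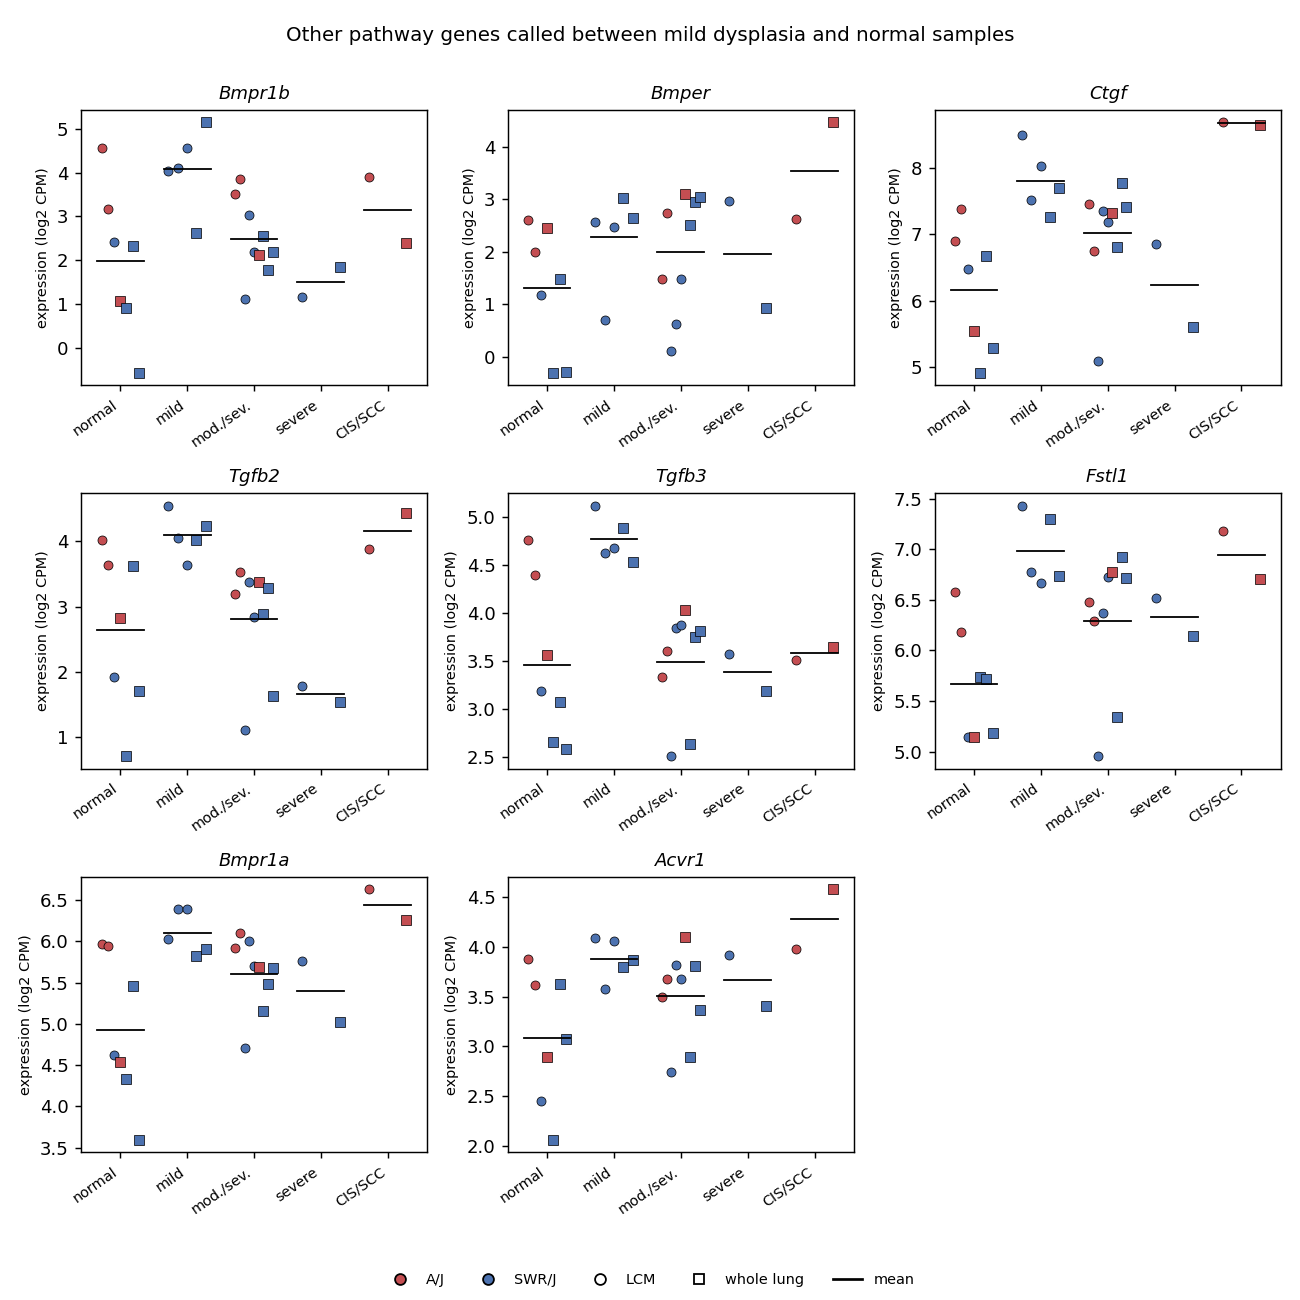
Levels of 8 pathway genes called between mild dysplasia and normal samples, in each of the 25 samples (y axis, log2 CPM) by histological grade (x axis), with strain as colour, sample type as symbol and the mean of each grade as a line. The mild samples (all SWR/J) lie above most normal samples of the same strain, and the high-grade samples of Tgfb3 lie between 2.51 and 4.03.

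The samples differed in their tissue content, and Fst and Pthlh moved with some of it. Over the 25 samples, in which grade, strain and depth also vary, the correlation (Pearson's r) of Fst with the summed mesothelial markers (Msln, Upk3b and Wt1) was 0.71 and that of Pthlh 0.85. With the T cell list it was −0.66 and −0.74, and with the airway basal list 0.49 and 0.44. For the thymocyte list it was −0.53 and −0.65, and for the B cell list −0.56 and −0.62. For the alveolar type 1 list it was 0.53 and 0.19, and for the squamous list 0.21 and 0.20. The mesothelial sum was 2032 CPM in the CIS and 3868 CPM in the SCC sample, 109 to 1241 in mild dysplasia and 12.5 to 365 in normal samples. In moderate to severe dysplasia it was 48.1 to 818 CPM, and in severe dysplasia 59.9 and 1167. The T cell sum was 70.6 to 2512 CPM in normal samples, 8.25 to 69.9 in mild dysplasia and 2.13 and 5.20 in SCC and CIS. In moderate to severe dysplasia it was 8.84 to 1691 CPM, and in severe dysplasia 22.6 and 121. Both sums in these middle grades overlapped those of normal samples. Of the 3 mesothelial markers, 2 were at 0 in each of 4 high-grade libraries, where the sum rests on 1 gene, and 1 was at 0 in 1 normal and 3 other high-grade libraries, while all 3 were detected in the mild dysplasia, CIS and SCC samples. The part of these marker lists in the levels was not tested. In bulk RNA, fewer cells of a type and less RNA per cell cannot be told apart.

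Markers of the labelled tissue were not uniform. The alveolar type 2 list summed to 41.9 to 24558 CPM in whole lung samples, the lowest being normal replicate 3, and to 34.3 to 7847 in LCM samples. The squamous keratinization list reached 25218 CPM in a normal whole lung sample (normal replicate 4), above the 1355 and 1591 of SCC and CIS. Normal replicate 4 had an Fst level of 1.70 (7 counts) and a Pthlh level of 0.11 (2 counts). These were the highest Fst and the lowest Pthlh among the 4 SWR/J normal samples. The next values were 1.64 and 0.15, and such counts do not resolve the order.

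Parathyroid hormone itself, the other ligand of PTH1R, was abundant in 2 libraries. Pth took 220034 counts, 3.13% of the total, in an LCM sample with moderate to severe dysplasia (high-grade replicate 4), and 29792 counts, 0.634%, in a whole lung sample of the same grade (high-grade replicate 10). Both were SWR/J at 25 µmol. Normal replicate 2 had 1948 counts and high-grade replicate 5 had 695, and the other 21 libraries had 172 or fewer, with 8 of them at 0. The same 2 libraries held the most thyroglobulin (Tg), at 46008 and 26145 counts, and the most calcitonin gene (Calca) reads, at 10400 and 1263. Pthlh was 2.34 and 0.73 log2 CPM in them, Fst 3.10 and 2.43, and Inhbb 0.99 and 0.96. Without these 2 libraries, 1 of the 6 genes and 8 of the 60 pathway genes were called in mild dysplasia, and 2 and 0 on the grade scale. Of all 15613 genes, 1574 were called in mild dysplasia and 37 on the grade scale in these fits.

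**Figure D5:**
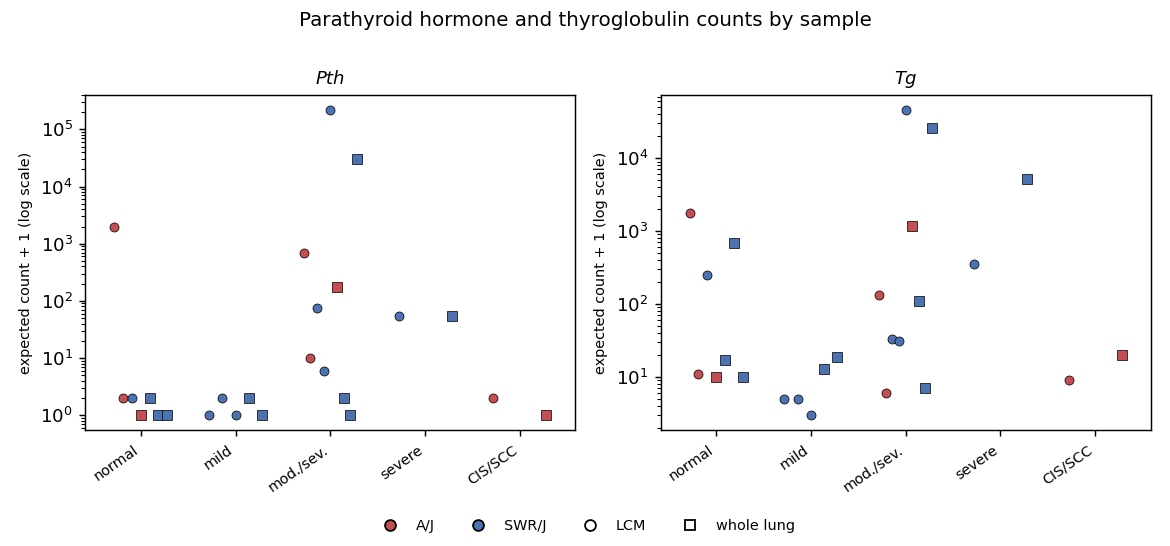
Expected counts plus 1 of Pth and Tg (y axes, log scale) in each of the 25 samples by histological grade (x axis), with strain as colour and sample type as symbol. The 2 libraries with 220034 and 29792 counts of Pth also hold the most Tg (46008 and 26145).

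Several of the 6 tested genes varied together. Over the 25 samples, in which grade and strain also vary, r was 0.74 between Fst and Pthlh, 0.62 between Fst and Inhbb and 0.84 between Fstl3 and Acvr2a. Without the CIS and SCC samples (n = 23) these were 0.56, 0.44 and 0.81. Fstl3 and Pthlh had an r of 0.26, and −0.01 without CIS and SCC.

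Genes most like Fst over the 25 samples, after removal of TIN, strain and sample type, among 14211 genes whose mean was 1 log2 CPM or more, were Anxa1 (r = 0.92), Tnfrsf12a (0.92), Etv4 (0.91), Id1 (0.90) and Klhdc8a (0.90). Those most like Pthlh were Sphk1 (0.90), Slc45a3 (0.90), B4galt1 (0.90), Stk39 (0.89) and Gm16731 (0.88). For Fstl3 the first was Prss57 (0.93), the gene it overlaps, followed by Apbb2 (0.89), Epb4.1l4a (0.88), Rbm47 (0.87) and Arhgap44 (0.87). Grade was not removed and the CIS and SCC samples were included, so shared differences by grade enter these correlations. Inhba did not pass the filter and has no such list.

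The 15 samples that failed quality control had not served to choose the genes. Among SWR/J LCM samples, 3 were normal and 6 high-grade, with library totals between 17051 and 1614079 counts. Fst held 1 count over the 3 normal and 29 over the 6 high-grade libraries, and Pthlh 0 and 19. Of the 29 Fst counts 23, and of the 19 Pthlh counts 17, came from 1 library of moderate to severe dysplasia. Inhbb went the other way, with 35 and 4 counts, 34 of them in 1 normal library. None of the 8 passed an exact permutation test, two-sided (lowest p = 0.17 for Inhbb, all adjusted p = 1, n = 3 and 6), in a design whose smallest possible p is 0.024. At this depth a difference was not detectable.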

How the data were processed

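The authors isolated RNA from LCM cells and whole lung sections, made unstranded poly(A) libraries, trimmed reads with Trimmomatic, aligned them to mm9 with STAR and deposited RSEM expected counts per Ensembl gene, which sum to between 2667387 and 16534728 per passed sample. Samples with under 15% uniquely aligned reads had been set aside by the authors (15 libraries of 17051 to 1965373 counts). All 40 columns were used. All 37310 identifiers matched the mm9 annotation, and 88.8% of values were whole numbers. Each sample's grade, strain and sample type were taken from its labels. The strain is written SWJ in the labels and SWR/J in the protocol.

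Expected counts were rounded and fitted with edgeR 4.0.16 in R 4.3.3 (TMM, robust quasi-likelihood test) on the 25 passed samples, adjusted for median TIN, for strain and for LCM or whole lung, and p-values were adjusted by Benjamini-Hochberg over 15630 genes with an interquartile range above 0 and a sum above 1 of log2 CPM. Calls used an adjusted p under 0.05. High-grade and mild samples were each compared with normal samples, and a rank from 0 to 4 stood for grade in another fit. Since the labels give no animals, p-values measure only the spread between samples. Counting limits cover counting error only.

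The 8 genes, the pathway and marker lists and the tests were chosen with earlier results of these data known. Pathway genes are named where called (up to 12 per comparison) or as direct partners (Pth1r, Acvr1, Acvr1c, Fstl1, Inha, Smad2, Smad3, Smad4, Smad7), except 1 called gene that is counted but not reported here, and the 5 genes most like Fst, Fstl3 and Pthlh are named by Pearson's r in residuals. Inhba did not pass the filter and was given no such list. On simulated counts with 200 changed genes the test recovered 143 at a log2 change of 2 for high-grade against normal (5 false calls among 15566 genes), 124 for mild against normal (10 among 15575) and 175 at a log2 change of 1 per TIN step (7 among 15582).

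Failed SWR/J LCM libraries were compared by an exact permutation test on log2(CPM + 1) with Python 3.11.15 and scipy 1.17.1, adjusted over the 8 genes. Alternatives were DESeq2 1.42.0, RLE size factors, other filters, other covariates, 1 sample type or strain alone, and leaving out each library or the samples whose labels conflict. Chosen after seeing the data were the markers Pth, Tg and Calca, and the fits without CIS and SCC, without the 2 libraries with most Pth, without 5 libraries over 500 CPM of thymocyte markers and without 6 over 900 CPM of skeletal muscle markers. Promoters came from RefSeq (GRCm38.p6).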

Additional observations from a re-analysis of the deposited data

Results flagged for a closer look

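Inha was listed at 0 counts, or −2.22 log2 CPM, in normal replicate 5, a whole lung SWR/J sample. By Dixon's criterion it stood apart from the other 6 normal samples. Bmper was 0.70 log2 CPM in mild replicate 2, an LCM sample, and stood apart from the other 4 mild samples. Over 48 groups tested in this way, chance marks about 1 group in 20.

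Fst was detected in both mild dysplasia libraries that failed quality control, which entered no comparison. They held 4 and 18 counts of Fst, or 19.5 and 19.7 CPM, and the 3 failed normal libraries held 1, 0 and 0 counts, or 5.78, 0 and 0 CPM. A count of 0 would have allowed up to 14.6 and 3.28 CPM in the mild and 17.3, 1.86 and 168 CPM in the normal libraries. The last normal library therefore cannot be placed below the mild values. The first, with 1 count, is not shown to lie below them either. The descriptions of both failed mild libraries name normal histology while their grade labels read mild dysplasia.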

How the results depend on the processing

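Of 720 refitted differences of the 6 tested genes of interest, 703 kept their sign, none that had been called reversed, and the 2 that moved by more than the spread between samples were the mild differences of Fstl3 (2.51) and Pthlh (0.66) in whole lung alone. Counts of calls depended more on the settings. DESeq2 called, of the 60 pathway genes, 19 in mild dysplasia, 1 in high-grade samples and 2 by rank, and of the 6 genes 5, 1 and, for strain, 3, beside 3653, 95, 539 and, for strain, 961 of all 15630 genes. In mild dysplasia, 0 pathway genes and 0 of the 6 were called within LCM, within whole lung, without strain and sample type as covariates, or without the thymus-marked libraries. Of all genes, 105 were called without the thymus-marked libraries and 0 in the other fits just named. Of the 6, 5 were called in mild dysplasia without TIN as a covariate, and 1 in SWR/J alone, without the filter, and without the CIS and SCC samples, the muscle-marked libraries, high-grade replicate 3 with normal replicate 5, the samples with conflicting labels, or the libraries with most Pth. Of all genes, those fits called 1925 without TIN, 1861 in SWR/J alone and 1457 without the filter. They called 1782 without CIS and SCC, 2086 without the muscle-marked libraries and 932 without high-grade replicate 3 and normal replicate 5. Without the samples with conflicting labels the number was 995, and without the libraries with most Pth it was 1574. By rank, 1 pathway gene was called without TIN, without the muscle-marked libraries, or without strain and sample type, beside 182, 285 and 182 of all genes. By rank, 0 of the 6 were called within LCM, whole lung or SWR/J, or without the CIS and SCC samples or the thymus-marked libraries. Of all tested genes, 0 were called by rank in each of these fits. For sample type, 1 of the 6 was called without the CIS and SCC samples (1981 of all 15668 genes). For strain, 1 was called with filterByExpr (215 of all 16990 genes) and 4 without TIN (2493 of 15630, against 155 with it). For TIN, 3 were called without strain and sample type (2862 of 15630, against 1143 with them). For TIN, 0 were called within LCM, whole lung or SWR/J, without the filter, or without the CIS and SCC samples, the muscle-marked or thymus-marked libraries, the libraries with most Pth, high-grade replicate 3 with normal replicate 5, or the samples with conflicting labels. Of all genes, TIN was called for 0 within LCM, 902 within whole lung, 1019 in SWR/J and 1018 without the filter. It was called for 1537 without CIS and SCC, 23 without the muscle-marked and 91 without the thymus-marked libraries. Without the libraries with most Pth it was called for 419. Without high-grade replicate 3 and normal replicate 5 the number was 421, and without the samples with conflicting labels 923. The cause of these shifts was not tested.

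With 1 library left out at a time, pathway calls ran from 4 (without normal replicate 1, mild replicate 1 or mild replicate 4) to 15 (without high-grade replicate 9) in mild dysplasia and from 0 to 1 by rank (1 without high-grade replicate 11). Calls among the 6 ran from 1 to 5 in mild dysplasia (5 without high-grade replicates 2 or 9), from 0 to 2 by rank, for sample type and for strain, and from 0 to 1 for TIN. No paired analysis was possible because the labels give no replicate numbers shared between groups. The fit of failed libraries above a minimum depth was not run, since it left 1 normal library. Depth limits Inhba and Acvr2b, whose group means lay near the count floor. Without removal of covariates, 1 of the 5 genes most like Fst, 3 of those like Fstl3 and 2 of those like Pthlh stayed among the first 5.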

Other observations

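Beside Pth, Tg and Calca, high-grade replicates 4 and 10 held 91 and 22 counts of Gcm2, which encodes a parathyroid transcription factor, and high-grade replicate 4 held 81 counts of Casr, the calcium-sensing receptor gene. Tg reached 5149 counts in high-grade replicate 11 and 1798 in normal replicate 2, against 2 to 18 in mild samples. Inhbb had a correlation over the 25 samples of −0.76 with the skeletal muscle list and 0.69 with the ciliated list, and Fstl3 of 0.72 with the alveolar type 1 list. Grade, strain and depth also vary over these samples.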
